A study of Mus musculus with 10 samples.

Results

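Cachd1, the CELSR cadherins and a group of genes that receive or read out WNT signals were measured in KPN1.1 tumors grown under the skin of obese mice. The 10 genes were Cachd1, Celsr1, Celsr2, Celsr3, Vangl2, Lrp5, Lrp6, Axin2, Nkd1 and Rnf43, found by their GENCODE mouse symbols among the 55401 genes of the count table. Of the 10, 8 passed the filter on low counts and entered the comparison of 17464 genes, and Celsr3 and Nkd1 did not. Cachd1 and Celsr2 were chosen by their measured values: they had been listed because their levels in all liraglutide tumors lay above those in all vehicle tumors, so their values by treatment are given as a description, and the fit across all genes, which holds them too, is no test of them. The series held 10 tumors, 5 from mice given liraglutide, a GLP-1 receptor agonist, and 5 from mice given the PBS vehicle, both by daily intraperitoneal injection. All mice were male C57BL/6J with obesity induced by a high-fat diet, and all received the same tumor line, KPN1.1, a mouse lung adenocarcinoma line carrying the inducible NINJA neoantigen allele. The labels give no age, and the study's methods describe young to mature adult mice at implantation. A frozen fragment of each tumor was used, so the RNA came from the cancer cells of 1 line together with the host cells in that fragment.

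WNT ligands bind Frizzled receptors and the coreceptors LRP5 and LRP6, which stabilizes beta-catenin and switches on target genes. Several of those targets, among them Axin2, Nkd1 and Rnf43, encode inhibitors of the pathway and serve as readouts of its activity. Planar cell polarity uses Frizzled and Dishevelled proteins without beta-catenin, together with the CELSR cadherins and Vangl2, to orient epithelial cells within a sheet. CACHD1 resembles the alpha-2-delta subunits of calcium channels, modulates T-type calcium channels and binds Frizzled proteins and LRP6.

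Total counts per tumor lay between 9927942 and 14480593, which puts 3 counts, taken as the floor, at 0.207 to 0.302 CPM (counts scaled to the size of the library). These floors cover counting error only. The tumors of a group differed by at least 9.53 times what counting alone gives (chi-square per degree of freedom), so within a group no library was a copy of another. The keratins Krt8, Krt18 and Krt19 and the cadherin Cdh1 were abundant, with group means from 1066 to 2435 CPM, whereas the epithelial markers Epcam, Cldn4, Cldn7 and Esrp1 had group means of 0.109 to 3.00 CPM. Of the lung lineage markers, Sftpb had group means of 274 and 256 CPM in vehicle and liraglutide tumors, Foxa2 of 46.7 and 56.3 CPM and Nkx2-1 of 46.3 and 91.8 CPM, while Sftpc was low at 1.15 and 2.84 CPM. Hnf4a, a transcription factor of gut and liver that was kept in the same list, had group means of 256 and 321 CPM.

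Among the 10 genes, the WNT coreceptors were by far the most abundant. Compared per kilobase of exon, the mean level over the 10 tumors was 28.8 ± 5.83 CPM per kb (SD, n = 10) for Lrp5 and 19.2 ± 1.79 for Lrp6. Celsr1 followed at 5.14 ± 1.90 CPM per kb, Cachd1 at 3.89 ± 1.37 and Rnf43 at 2.07 ± 0.765. Vangl2 stood at 0.844 ± 0.531 CPM per kb, Celsr2 at 0.302 ± 0.160 and Axin2 at 0.242 ± 0.106. Nkd1 and Celsr3 were lowest, at 0.0612 ± 0.0360 and 0.00744 ± 0.0117 CPM per kb. Of neighbors in this order, Lrp6 and Celsr1 alone had ranges over the tumors that did not overlap (lowest 16.7 against highest 7.85 CPM per kb). Tumor by tumor, Lrp5 was above Lrp6, Lrp6 above Celsr1 and Axin2 above Nkd1 in all 10 tumors, whereas Celsr2 was above Axin2 in 6 of 10 and Vangl2 above Celsr2 in 8 of 10, and the order of each other pair of neighbors held in 9 of 10. The ratio of Lrp5 to Lrp6 per kilobase ran from 1.12 to 1.72.

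Cachd1 (ENSMUSG00000028532.14, chr4:100633866-100886417 on the plus strand of GRCm39) was higher in the liraglutide tumors. In vehicle tumors 1 to 5 its level was 17.3, 12.6, 19.7, 21.8 and 18.0 CPM. In liraglutide tumors 1 to 5 it was 33.7, 25.4, 38.2, 31.3 and 36.5 CPM. The lowest liraglutide tumor, number 2, lay above the highest vehicle tumor, number 4, so the groups did not overlap, which is the property that put Cachd1 on the list. Group means were 17.9 ± 3.43 CPM (SD, n = 5) and 33.0 ± 5.03 CPM, a ratio of 1.85 and a log2 fold change of 0.88 with a standard error of 0.16. The counts behind these levels ran from 124 to 504 per tumor. In bulk tumor RNA, fewer cells of a type and less RNA per cell cannot be told apart, and this holds for every level given here.

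Celsr2 (ENSMUSG00000068740.13, chr3:108298165-108323397, minus strand), which encodes a CELSR cadherin, an adhesion receptor with cadherin repeats and a membrane-spanning G protein-coupled receptor domain, was present at lower levels. The vehicle tumors 1 to 5 had 1.24, 2.13, 1.89, 2.43 and 2.69 CPM. The liraglutide tumors 1 to 5 had 3.02, 6.61, 4.78, 5.95 and 5.66 CPM. Liraglutide tumor 1 came closest to the vehicle tumors, lying just above vehicle tumor 5, and the other 4 were clear of them. Means were 2.08 ± 0.554 and 5.20 ± 1.39 CPM (SD, n = 5 each), a ratio of 2.51, with a log2 fold change of 1.33 and a standard error of 0.27. These levels rested on 18 to 81 counts per tumor. Of all genes tested, 0.607% were higher in liraglutide tumors without overlap and 1.49% did not overlap in either direction. Since both genes were chosen for that property, their count of 2 among 8 says nothing beyond the choice.

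**Figure D1:**
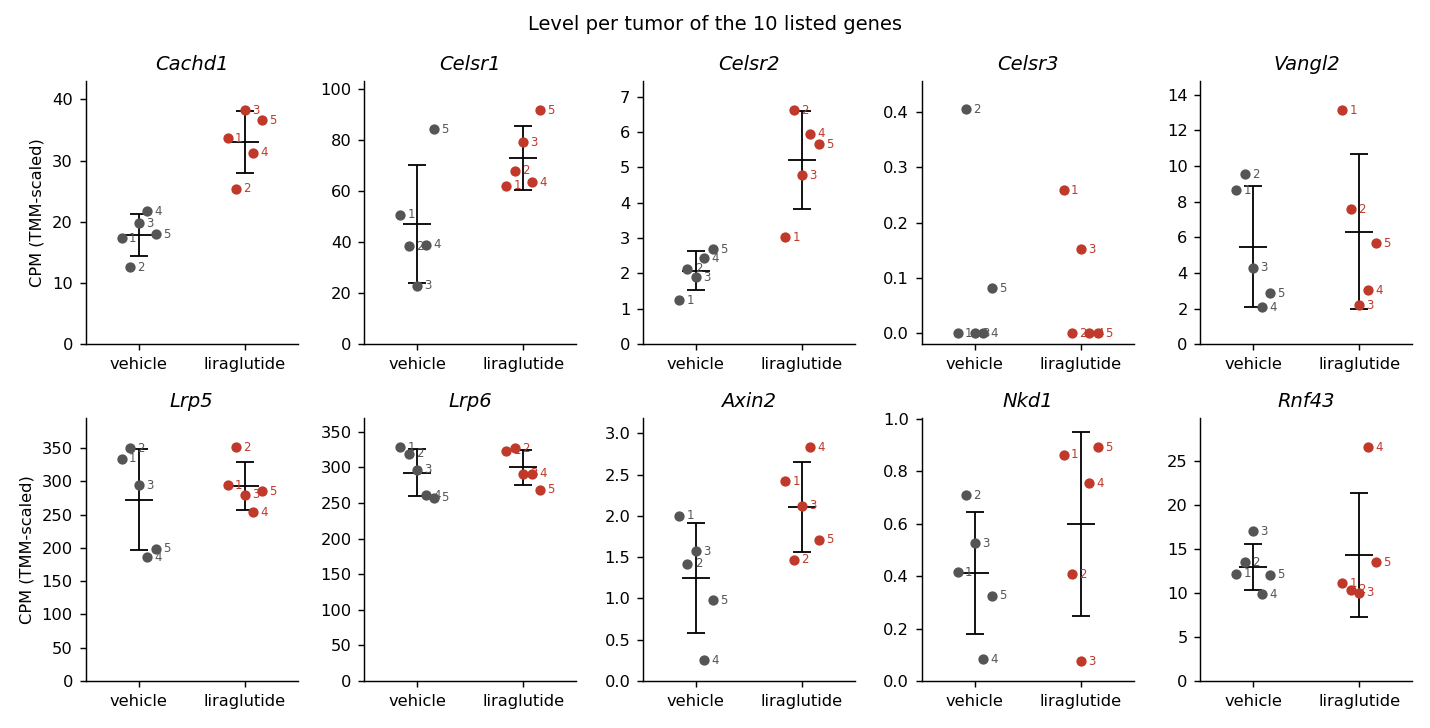
Level of each of the 10 genes in every tumor, in CPM after TMM scaling, with a separate linear axis for each gene. Points carry the tumor number, and bars show the mean and SD of 5 tumors per group (not drawn for Celsr3, which had 0 counts in 6 of 10 tumors). All liraglutide points lie above all vehicle points for Cachd1 and Celsr2, and the groups overlap in the other 8 panels.

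The sequences just upstream of 3 of these genes are shown because Cachd1 and Celsr2 were the genes without overlap and Axin2 is the standard beta-catenin target. They are RefSeq promoter windows on GRCm38.p6, the 250 bases before the annotated start read 5′ to 3′ on the gene's own strand, with GC boxes (GGGCGG or its reverse complement) in capitals. Cachd1 lies at chr4:100776429-100776678 (plus strand), Celsr2 at chr3:108415580-108415829 (minus) and Axin2 at chr11:108920099-108920348 (plus).
Cachd1: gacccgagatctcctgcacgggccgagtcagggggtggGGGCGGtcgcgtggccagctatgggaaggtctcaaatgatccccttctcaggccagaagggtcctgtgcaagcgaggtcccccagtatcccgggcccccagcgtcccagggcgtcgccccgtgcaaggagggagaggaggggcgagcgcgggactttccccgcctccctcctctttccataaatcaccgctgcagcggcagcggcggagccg
Celsr2: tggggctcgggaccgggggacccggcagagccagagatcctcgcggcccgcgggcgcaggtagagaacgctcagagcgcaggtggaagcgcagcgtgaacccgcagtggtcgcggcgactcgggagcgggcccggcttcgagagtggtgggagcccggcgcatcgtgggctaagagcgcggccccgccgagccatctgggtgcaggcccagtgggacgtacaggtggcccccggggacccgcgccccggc
Axin2: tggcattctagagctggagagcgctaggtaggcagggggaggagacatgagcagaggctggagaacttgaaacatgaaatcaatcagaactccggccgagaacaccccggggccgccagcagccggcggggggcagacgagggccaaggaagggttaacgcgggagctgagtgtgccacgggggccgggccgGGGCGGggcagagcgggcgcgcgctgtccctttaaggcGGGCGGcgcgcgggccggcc
All 3 windows were rich in G and C, at 68.8% for Cachd1, 75.2% for Celsr2 and 69.2% for Axin2, against a median of 52.4% over 32851 mouse windows. The Axin2 window held 2 GC boxes, the Cachd1 window 1 and the Celsr2 window 0, while 32.7% of all windows held at least 1. The TCF/LEF element CTTTGAT, searched on both strands, was in 3.21% of all windows and its core CTTTG, which overlaps it, in 48.6%. Neither was found in any of the 8 windows that matched 7 of the 10 genes, which says only that these letters are not in these windows. The E-box CANNTG was in 66.2% of all windows, with 1 match in the Cachd1 window, 3 in that of Celsr2 and 0 in that of Axin2.

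Celsr1 (ENSMUSG00000016028.11, chr15:85783126-85918438, minus strand) was the CELSR cadherin these tumors mainly contained. Per kilobase it made up 95.1 ± 2.12% of the family in vehicle tumors and 93.4 ± 1.71% in liraglutide tumors (SD, n = 5 each), with nearly all the rest Celsr2. Its levels in vehicle tumors 1 to 5 were 50.7, 38.3, 23.0, 38.9 and 84.3 CPM, and in liraglutide tumors 1 to 5 they were 62.1, 68.0, 79.2, 63.6 and 91.6 CPM. All liraglutide tumors lay above 4 of the 5 vehicle tumors, and vehicle tumor 5 lay above 4 of the 5 liraglutide tumors. The log2 fold change was 0.63 (95% interval 0.01 to 1.25), which did not pass the adjustment over all genes (edgeR's quasi-likelihood test, adjusted p = 0.518). Without vehicle tumor 5, the only vehicle tumor that reached the liraglutide range, the log2 fold change was 0.95. Liraglutide was higher in 21 of the 25 pairs of 1 vehicle and 1 liraglutide tumor for Celsr1 and in 22 for Axin2. The share of all genes tested that reached as many pairs was not counted. For Cachd1 and Celsr2 it was higher in all 25, which restates how they were chosen.

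Celsr3 (ENSMUSG00000023473.13, chr9:108703519-108730168, plus strand) was close to undetectable. Its counts were 0, 4, 0, 0 and 1 in vehicle tumors 1 to 5 and 3, 0, 2, 0 and 0 in liraglutide tumors. Only vehicle tumor 2 exceeded 3 counts, so no difference between groups was detectable at this depth. Vangl2 (ENSMUSG00000026556.15, chr1:171828527-171856011, minus strand), a core membrane protein of planar polarity, had the largest coefficient of variation of the 8 tested genes, 61.9% in vehicle and 69.1% in liraglutide tumors. Vehicle tumors 1 to 5 had 8.64, 9.53, 4.30, 2.09 and 2.85 CPM, and liraglutide tumors 1 to 5 had 13.1, 7.59, 2.20, 3.02 and 5.66 CPM. In each group tumors 1 and 2 were the highest, and the groups overlapped over most of their range. The log2 fold change was 0.20 (95% interval -0.96 to 1.37, adjusted p = 0.909), and it was -0.25 without liraglutide tumor 1. It was 0.86 with the leukocyte score as a covariate and 0.93 with the skeletal muscle score, a fit added after seeing the data, and neither passed the test.

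Of the 8 tested genes, the coreceptors had the smallest ratio of the highest to the lowest tumor, 1.28 for Lrp6 and 1.89 for Lrp5. Lrp6 (ENSMUSG00000030201.15, chr6:134423439-134544212, minus strand) had 329, 319, 297, 261 and 257 CPM in vehicle tumors 1 to 5 and 324, 327, 291, 291 and 268 CPM in liraglutide tumors. The groups covered nearly the same range of Lrp6, and the log2 fold change was 0.04 (95% interval -0.19 to 0.26, adjusted p = 0.914), or 0.16 with the skeletal muscle score as a covariate, added after seeing the data. With a tumor left out it ran from 1.5e-04 to 0.08. Lrp5 (ENSMUSG00000024913.16, chr19:3634821-3736643, minus strand) had 334, 350, 294, 186 and 199 CPM in vehicle tumors and 294, 351, 280, 254 and 285 CPM in liraglutide tumors. The 2 lowest values were vehicle tumors 4 and 5, the remaining vehicle tumors lay at 294 CPM or more, and the log2 fold change was 0.10 (95% interval -0.30 to 0.51, adjusted p = 0.861). It was 3.0e-04 without vehicle tumor 4 and 0.32 with the leukocyte score as a covariate. These intervals, from the fit with treatment alone, leave room for a change of Lrp6 of at most 0.26 on the log2 scale in either direction. This was the narrowest limit among the 8 tested genes.

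Of the readouts, Rnf43 (ENSMUSG00000034177.15, chr11:87553548-87626377, plus strand), a ubiquitin ligase that removes Frizzled from the membrane, was the most abundant. Its levels were 12.2, 13.5, 17.0, 9.87 and 12.1 CPM in vehicle tumors 1 to 5 and 11.1, 10.4, 10.01, 26.5 and 13.5 CPM in liraglutide tumors. Liraglutide tumor 4 stood far above the other 9, and the other 4 liraglutide tumors lay within the range of the vehicle tumors. The log2 fold change was 0.15 (95% interval -0.46 to 0.75, adjusted p = 0.873), and it was -0.19 without that tumor. In GENCODE M39 an antisense long noncoding RNA covers 8.07% of the exon bases of Rnf43, so some of its reads may belong to that RNA if strand was not used in counting.

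Axin2 (ENSMUSG00000000142.15, chr11:108811169-108841609, plus strand), the scaffold of the beta-catenin destruction complex that beta-catenin itself induces, was found at 2.00, 1.42, 1.57, 0.251 and 0.977 CPM in vehicle tumors 1 to 5. In liraglutide tumors 1 to 5 it was at 2.42, 1.47, 2.12, 2.83 and 1.71 CPM. The lowest value, vehicle tumor 4, was 3 counts, and 3 of the 5 liraglutide tumors lay above all vehicle tumors. Means were 1.25 ± 0.666 and 2.11 ± 0.545 CPM (SD, n = 5 each), with a log2 fold change of 0.75 (95% interval -0.15 to 1.65) that did not pass the threshold (edgeR's quasi-likelihood test, adjusted p = 0.577). Without vehicle tumor 4 it was 0.49. Nkd1 (ENSMUSG00000031661.12, chr8:89247890-89324577, plus strand), which binds Dishevelled and dampens the signal, was below the filter, with 6, 7, 5, 1 and 4 counts in vehicle tumors and 10, 5, 1, 8 and 12 in liraglutide tumors. The sums were 23 and 36 counts, the groups overlapped, and the filter kept Nkd1 out of the comparison.

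For the treatment comparison as a whole, edgeR's quasi-likelihood test called 0 of the 8 tested genes where a call meant an adjusted p below 0.05 and a log2 fold change of more than 0.58 in size, and likewise 0.0% of all genes tested, with 0.482 as the smallest adjusted p. Of the 6 genes not chosen on this comparison, 1, Celsr1, stood at an unadjusted p under 0.05, against 9.59% of all genes. limma-voom also called 0 of the 8, and DESeq2 called 0 of the 3 listed genes to which its own filter gave an adjusted p, with 0.448% of the genes it adjusted called in all. DESeq2 without that filter, an alternative added after seeing the data, called 0 of those 6 genes, with 0.0256% of genes called in all. Its 2 calls among the listed genes were Cachd1 and Celsr2, which restates how they were chosen. The 6 genes not chosen on this comparison all had positive log2 fold changes, against 47.4% positive and 52.6% negative among all genes tested. Their median was 0.17, against -0.02 over all genes. With Cachd1 and Celsr2, whose sign the choice fixed, the median was 0.42. The list as a whole was drawn up with earlier results of these data known, so these 6 are not an unselected set. Of their intervals only that of Celsr1 lay above 0. For Rnf43 the sign turned with keratinocyte or skeletal muscle marker levels as a covariate and without liraglutide tumor 4, and for Vangl2 without liraglutide tumor 1.

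**Figure D2:**
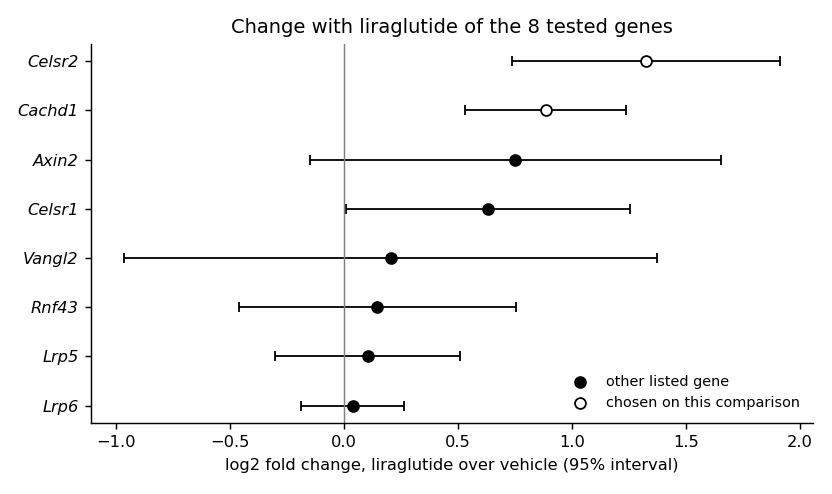
Log2 fold change of the 8 tested genes, liraglutide over vehicle, with 95% intervals from edgeR on 5 tumors per group. Open points mark Cachd1 and Celsr2, which were chosen on this comparison, and of the other 6 only the interval of Celsr1, from 0.01 to 1.25, lies above 0.

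The wider pathway was read from lists of genes by role, and no list held a gene called by edgeR's quasi-likelihood test. Of 19 WNT ligands, 6 passed the filter, 4 with a positive and 2 with a negative log2 fold change, at a median of 0.25. The median was 0.0180 without vehicle tumor 5, just below 0 with the keratinocyte score as a covariate and -0.76 when at least 10 counts were required in every tumor. The most abundant ligand per kilobase, Wnt7b, averaged 31.5 ± 29.3 CPM in vehicle and 18.3 ± 22.2 CPM in liraglutide tumors (SD, n = 5 each). Wnt5a, a ligand best known outside the beta-catenin pathway, had the most negative value of the list, -1.07, with group means of 34.6 ± 33.8 and 16.5 ± 10.1 CPM, and Wnt4 the most positive, 0.73, which was 0.39 with the skeletal muscle score as a covariate, added after seeing the data. For both abundant ligands the SD of the vehicle tumors exceeded the difference between group means, and the direction turned with marker scores as covariates. Wnt5a was at 0.25 with the leukocyte and 0.0318 with the skeletal muscle score, and ran from -1.50 without liraglutide tumor 2 to -0.50 without vehicle tumor 2. Wnt7b was at 0.26 and 0.37 with these scores, and ran from -1.85 to -0.25 without the same tumors.

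Of 16 WNT receptors, 14 were tested, 12 of them positive and 2 negative (median log2 fold change 0.30, or 0.17 without vehicle tumor 5). The largest was that of Fzd8, 0.80 (adjusted p = 0.590), at group means of 0.688 and 1.17 CPM, and the most negative that of the receptor tyrosine kinase-like protein Ryk, -0.03, which was 0.0266 with library size alone. Among 9 genes of the R-spondin axis, which sets how much Frizzled stays at the surface, 5 were tested and 4 were positive (median 0.17), and none of the 4 R-spondins passed the filter. The median was 0.27 without vehicle tumor 1 or vehicle tumor 3 and 0.28 by limma-voom. The receptor Lgr6 was the most abundant per kilobase, at 104 and 117 CPM, Lgr4 had the most positive log2 fold change, 0.50, and Znrf3, the partner of Rnf43, the most negative, -0.07. Lgr4 was at 0.29 without liraglutide tumor 3, 0.22 with the leukocyte score as a covariate and 0.09 with the skeletal muscle score, added after seeing the data. Of 17 secreted and membrane inhibitors, 8 were tested and 6 were positive (median 0.14). That median was 0.0032 without vehicle tumor 5 and 0.35 with the leukocyte score as a covariate. Trabd2b, a membrane protease that inactivates WNT ligands, had the largest value, 0.95 (adjusted p = 0.482), Apcdd1 the most negative, -0.35, and Kremen1 was the most abundant per kilobase. Apcdd1 was at -0.14 without vehicle tumor 3 and at -0.16 with the leukocyte score.

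All 32 genes of WNT signal transduction and transcription were tested, 21 with a positive and 11 with a negative log2 fold change (median 0.09). The median was 0.14 with library size alone and 0.15 with the skeletal muscle score as a covariate, a fit added after seeing the data. Ctnnb1, which encodes beta-catenin, was the most abundant per kilobase, at 1003 ± 213 CPM in vehicle and 1070 ± 111 CPM in liraglutide tumors, with a log2 fold change of 0.09 (edgeR's quasi-likelihood test, adjusted p = 0.843) that was 5.2e-05 without vehicle tumor 5 and 0.21 without vehicle tumor 3. The corepressor Tle2 had the most positive value, 0.96 with a standard error of 0.27 (adjusted p = 0.482), and was higher with liraglutide in 24 of the 25 pairs of tumors. Its vehicle tumors had 6.29, 6.18, 6.72, 15.2 and 7.01 CPM and its liraglutide tumors 15.6, 11.4, 19.3, 18.1 and 16.3 CPM, so vehicle tumor 4 alone reached the liraglutide range. Tle4, another corepressor of the same family, had the most negative value, -0.49, which was -0.25 without vehicle tumor 3 and -0.16 with the leukocyte score as a covariate. Of the 32 genes, 1 did not overlap between groups, against 1.49% of all genes tested, and a share this near the background is no result about the list. This was the beta-catenin cofactor Bcl9l, named here after its values were seen. It had 69.2 to 111 CPM in vehicle and 113 to 151 CPM in liraglutide tumors, with a log2 fold change of 0.60 (adjusted p = 0.482).

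Beside Axin2, Rnf43 and Nkd1, 12 more feedback targets of beta-catenin were listed. Of the 15, 10 were tested, 6 with a positive and 4 with a negative log2 fold change (median 0.12). Nkd2, the paralog of Nkd1, had the largest value, 0.94 (adjusted p = 0.499), at 3.28 ± 1.74 CPM in vehicle and 6.33 ± 2.06 CPM in liraglutide tumors (SD, n = 5 each). Nkd2 was at 0.48 with the skeletal muscle score as a covariate. Apcdd1 had the most negative, -0.35, and the most abundant per kilobase was Tcf7, with a log2 fold change of -0.29. None of the 10 passed the test, and the split by direction moved with the fit. Znrf3 and Tcf7, both negative, were at 0.11 and 0.22 with the leukocyte score as a covariate and at 0.26 and 0.24 with the skeletal muscle score, a fit added after seeing the data. The list median was 0.0366 without liraglutide tumor 4 and 0.26 by DESeq2.

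Planar polarity genes were divided evenly, with 13 of 26 tested genes positive and 13 negative and a median of 0.04. Without Celsr2, chosen for its direction, 12 of 25 were positive. The median was -0.0291 without liraglutide tumor 1 and 0.14 without vehicle tumor 1, it was also below 0 without vehicle tumor 4, and it was 0.18 with the leukocyte score as a covariate. The giant cadherin Fat1, the most abundant of the list per kilobase, had 953, 888, 1037, 1208 and 1473 CPM in vehicle tumors 1 to 5. In liraglutide tumors 1 to 5 it had 1553, 1241, 1810, 1569 and 1730 CPM. Liraglutide was higher in 24 of the 25 pairs of tumors, vehicle tumor 5 and liraglutide tumor 2 being the exception, and the log2 fold change was 0.51 with a standard error of 0.15 (adjusted p = 0.482). It was 0.32 with the skeletal muscle score as a covariate. Fat2 had the most negative value of the list, -0.51, which ran from -0.80 without liraglutide tumor 2 to -0.33 without liraglutide tumor 3 or 5, and was -0.26 with the skeletal muscle score. For the calcium channel subunits, the family that CACHD1 resembles, 11 of 12 tested genes were positive, with a median of 0.46. The list holds Cachd1 itself, chosen for its direction, and without it 10 of 11 were positive, with a median of 0.43. Cacna1s, the pore of the skeletal muscle calcium channel, had the largest value, 0.91, just above that of Cachd1, 0.88 (adjusted p of Cacna1s = 0.499), Cacnb2 the most negative, -0.31, and Cacnb3 was the most abundant per kilobase, with 0.26. With skeletal muscle marker levels as a covariate, a fit added after seeing the data, the median of this list was 0.20, Cacna1s stood at 0.16 and Cacnb2 at -0.11, and with the keratinocyte score, likewise added, Cacnb3 stood at 0.42.

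**Figure D3:**
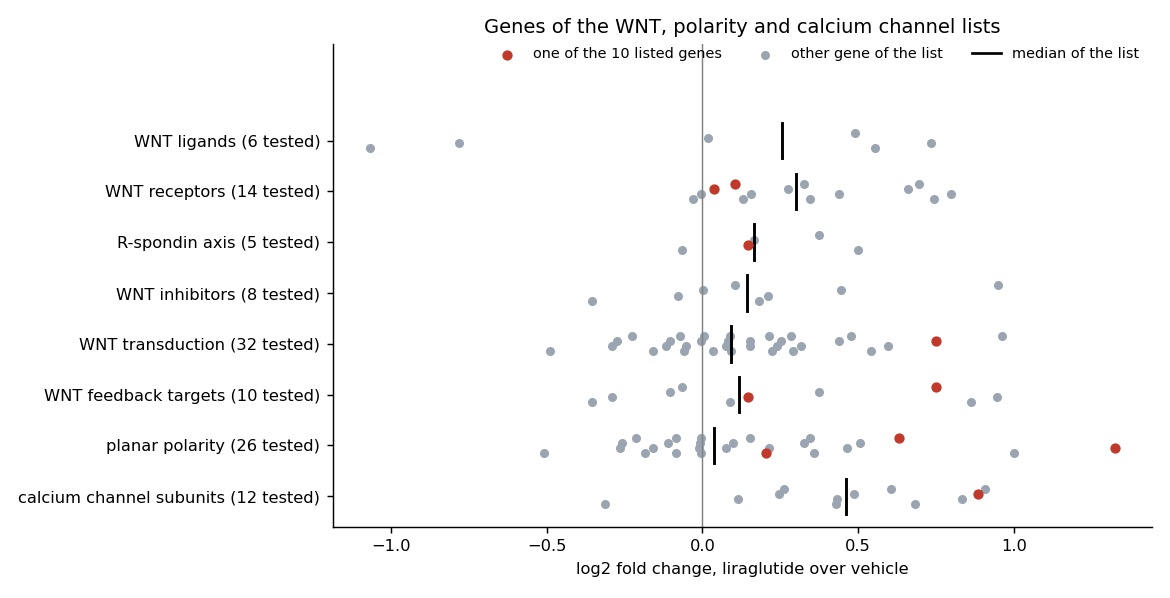
Log2 fold change, liraglutide over vehicle, of each tested gene in 8 lists by role, with black bars at the list medians and red points for the 10 listed genes where tested. Genes can stand in more than 1 list. Medians lie between 0.04 for planar polarity and 0.46 for calcium channel subunits, and every list has genes on both sides of 0. The planar polarity and calcium channel lists hold Celsr2 and Cachd1, chosen for their direction.

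Some of the listed genes varied with markers of other cells in the fragment. This was described by the correlation of log2 CPM with the log2 summed CPM of each marker list over the 10 tumors, after the group means were subtracted. In such a sum the most abundant markers weigh most. The scores used as covariates were a different measure, the mean of the standardized log2 CPM of the genes of a list. Vangl2 had r = -0.92 with leukocyte markers, Lrp6 -0.89 and Lrp5 -0.77, whereas Cachd1 had r = 0.77. Without subtraction of group means, the relation of Vangl2 with leukocyte markers had Pearson's r = -0.87 (permutation test, p = 0.00269, n = 10) and Spearman's rho = -0.77 (permutation test, p = 0.0123). For Lrp6 they were r = -0.81 (permutation test, p = 0.00799, n = 10) and rho = -0.72 (permutation test, p = 0.0240). Of 54 such relations, computed for 6 genes and 9 marker lists, none passed the adjustment, with adjusted values for r of 0.145 for Vangl2 and 0.201 for Lrp6, and for rho of 0.166 and 0.230. Leaving out the 2 tumors farthest from the median marker level gave r = -0.83 for Vangl2 and -0.73 for Lrp6. The smallest p of rho was that of Rnf43 with endothelial markers (rho = 0.83, permutation test, p = 0.00438, adjusted p = 0.166), where r was 0.56. Axin2 with fibroblast markers had r = 0.74 (permutation test, p = 0.0112, adjusted p = 0.201). That r was 0.22 without the 2 farthest tumors. The summed CPM of the 12 leukocyte markers, of which 9 were tested and 0 called, ran from 210 to 388 in vehicle and from 238 to 444 in liraglutide tumors. Some of the listed genes also varied together, again after subtraction of the group means. Lrp5 and Lrp6 had r = 0.87, Vangl2 with Lrp6 0.78 and Vangl2 with Lrp5 0.76, while Cachd1 with Celsr2 had -0.14.

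The chosen genes were read against the same markers. Keratinocyte markers were uneven, with a summed CPM of 10.02 to 21.3 in vehicle tumors and 8.81, 218, 10.6, 85.4 and 58.6 in liraglutide tumors 1 to 5. All 7 of them had a positive log2 fold change, 6 at an unadjusted p under 0.05 (against 9.59% of all genes) and 0 called, as for all genes, and Krt5, the basal keratin, had group means of 0.687 and 7.55 CPM. Celsr2 was highest in liraglutide tumors 2, 4 and 5, the 3 with the most keratinocyte RNA, with r = 0.69 after subtraction of the group means. Liraglutide tumors 1 and 3, with keratinocyte sums of 8.81 and 10.6 CPM, had the 2 lowest Celsr2 levels of their group, 3.02 and 4.78 CPM. Both levels still lay above every vehicle tumor. Vehicle tumor 3, with a keratinocyte sum of 21.3 CPM, had Celsr2 at 1.89 CPM. With the keratinocyte score as a covariate, added after seeing the data, its log2 fold change was 0.98, and with the leukocyte score 1.24. For Cachd1 the values were 1.01 and 0.76. Skeletal muscle markers, 8 of 8 with a positive log2 fold change, 3 at an unadjusted p under 0.05 and 0 called, summed to 205 to 872 CPM in vehicle and 503 to 1599 CPM in liraglutide tumors, and with their score as a covariate Cachd1 stood at 0.73 and Celsr2 at 1.08. The part of these cells in the differences of Cachd1 and Celsr2 was not tested.

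**Figure D4:**
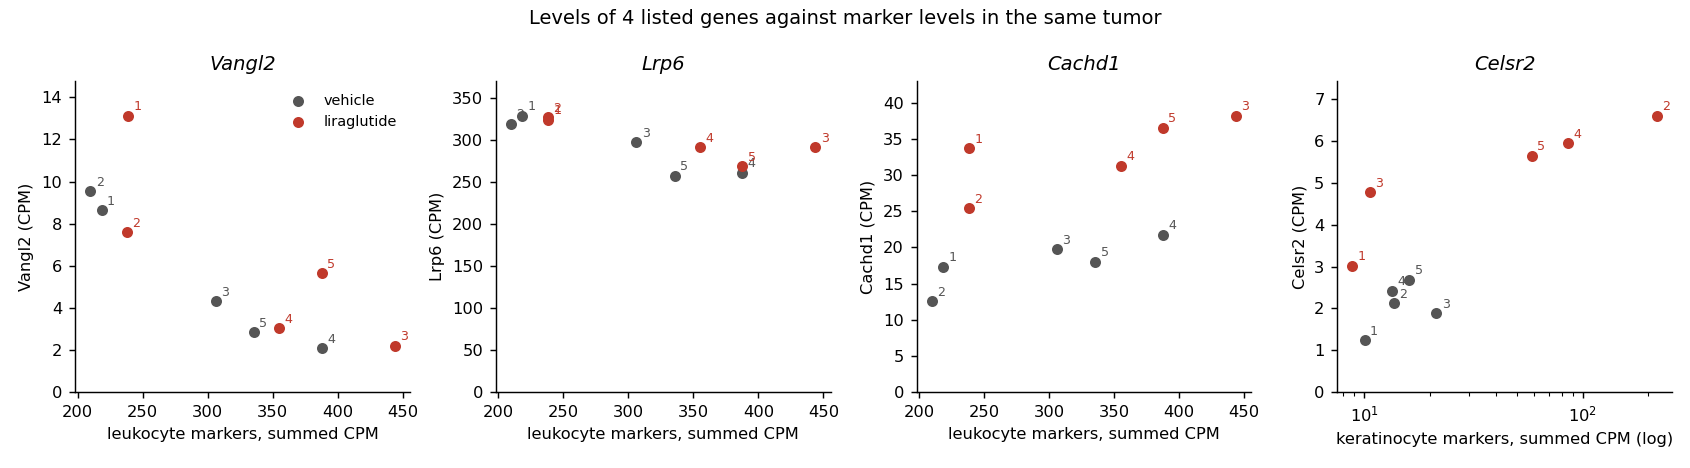
Levels of Vangl2, Lrp6, Cachd1 and Celsr2 in CPM against the summed CPM of leukocyte markers (first 3 panels, linear axis) or keratinocyte markers (last panel, log axis), 1 point per tumor with its number. Vangl2 and Lrp6 tend to be lower in tumors with more leukocyte RNA in both groups, though no such relation passed the adjustment. The order does not hold for every tumor: liraglutide tumor 3, with the highest leukocyte sum, has more Lrp6 than liraglutide tumor 5. The 3 tumors with the highest keratinocyte sums, 58.6 to 218 CPM, have the highest Celsr2 levels. Liraglutide tumors 1 and 3, with sums of 8.81 and 10.6 CPM, also lie above all vehicle tumors in Celsr2.

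The other marker lists gave 0 calls as well. Median log2 fold changes were 0.27 for 9 tested epithelial markers, 0.70 for 7 of the lung lineage list (0.85 for 6 without Hnf4a), 0.08 for 10 of fibroblasts, 0.01 for 10 of the endothelium, 0.26 for 9 of leukocytes, -0.39 for 4 of adipocytes and 0.11 for 4 of glia and nerve. The neuronal marker Elavl4 had 0 counts in all tumors. For skeletal muscle the median was 0.97 and for keratinocytes 1.93. After subtraction of the group means, Lrp5 and Lrp6 had r = -0.84 and -0.82 with the lung lineage list, and -0.76 and -0.78 without Hnf4a, a list chosen after seeing the data. Without that subtraction they had r = -0.69 and -0.71, which failed the adjustment over the 54 relations, and r = -0.57 and -0.58 when the 2 tumors farthest from the median marker level were left out.

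The genes whose levels followed Cachd1 most closely across the 10 tumors, after subtraction of the group means and among 11816 genes with a mean of at least 5 CPM, were Isoc2a (r = 0.95), the lysosomal membrane glycoprotein gene Glmp (r = 0.95) and the chondroitin sulfotransferase gene Chst12 (r = 0.95). Their log2 fold changes with liraglutide were 0.13, 0.22 and 0.53. Closest to Celsr2, among 11817 genes, were Nsrp1 (r = 0.93), Bola2 (r = 0.93) and the protease gene Adamts9 (r = 0.91), with log2 fold changes of 0.01, 0.06 and 0.64. These are the highest of many correlations over 10 tumors and carry no test.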

How the data were processed

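Ribosomal RNA-depleted total RNA of 10 tumors was sequenced as read pairs with a dUTP-stranded kit. The authors mapped the reads with Bowtie 1.0.1 and TopHat 2.0.13, counted them with featureCounts and deposited raw counts per gene, whole numbers without normalization, by versioned Ensembl identifier. The methods name GRCm39, whereas the submitters' processing notes name mm10 and GRCh38, and the annotation release, strand setting and treatment of multimapping reads are not given in the sources used here. Identifiers were matched without version to GENCODE M39 on GRCm39 (51731 of 55401, 93.4%, with 98.3% of counts), which gave symbols, positions and exon lengths. All positions of genes here are those of M39, and 35 identifiers had the same version as in M39. Of 221 listed symbols, 220 were found. Groups came from the sample labels. The labels do not say that each tumor came from its own mouse, so p-values measure the spread between these tumors, which may be technical in part.

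Genes were filtered with filterByExpr of edgeR 4.0.16 in R 4.3.3 and TMM-normalized, and the 5 liraglutide tumors were compared with the 5 vehicle tumors by the quasi-likelihood F test with Benjamini-Hochberg adjustment over 17464 genes, treatment being the single factor. Genes were called where the adjusted p was below 0.05 and the log2 fold change exceeded 0.58 in size. DESeq2, the tool of the study, was an alternative. CPM used TMM-scaled library sizes, and log2 CPM a prior count of 2. Intervals are at 95%. Relations across tumors used 100000 permutations, two-sided.

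The alternatives were DESeq2 1.42.0, limma-voom (limma 3.58.1), DESeq2 size factors, library size alone, every gene with at least 1 count, at least 10 counts in every tumor, robust empirical Bayes, tumor number as a block, a leukocyte score as covariate and each tumor left out. DESeq2 without independent filtering and keratinocyte or skeletal muscle scores as covariates were added after seeing the data. Named genes were the 10 listed genes, the genes of each pathway list with the most positive and most negative log2 fold change and the highest level per kilobase, and the 3 genes most like Cachd1 and Celsr2. The 10 genes, the pathway lists and the markers were chosen with earlier results of these data known. The fits were tested on simulated data. For edgeR, 47.5% of the genes given a log2 change of 1 were found and 87.6% of those given 2, and 5 of its 137 calls were false. The shares were 48.5% and 85.6% for limma-voom, where 9 of 140 calls were false, and 61% and 92% for DESeq2, where 54 of 207 were. Sequences came from RefSeq windows on GRCm38.p6, a different build from that of the gene positions.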

Additional observations from a re-analysis of the deposited data

Results flagged for a closer look

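Values were examined for tumors far from the rest of their group by Dixon's test, with a critical ratio of gap to range of 0.71, over 80 groups of 5 tumors, and 8 stood out, where chance gives about 1 in 20. Among the listed genes, Celsr3 was highest in vehicle tumor 2 at 0.406 CPM, which is 4 counts, with the next tumor at 0.0815 CPM. Rnf43 was highest in liraglutide tumor 4 at 26.5 CPM, with the next liraglutide tumor at 13.5 CPM. Of the genes named from the pathway lists, Wnt5a stood at 34.0 CPM in liraglutide tumor 2, with the next at 15.8 CPM, and Tcf7 in the same tumor at 20.8 CPM, with the next at 10.7 CPM. Lgr6 was lowest in vehicle tumor 5 at 36.9 CPM, with the nearest at 105 CPM, and highest in liraglutide tumor 3 at 154 CPM, with the nearest at 115 CPM. Tle2 was at 15.2 CPM in vehicle tumor 4, with the next vehicle tumor at 7.01 CPM. Glial and nerve markers summed to 100.4 CPM in vehicle tumor 5, with the next at 74.4 CPM. What sets these tumors apart was not tested.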

How the results depend on the processing

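Cachd1 and Celsr2, whose direction the choice of genes fixed, stood at 0.73 to 1.01 and 0.98 to 1.38 on the log2 scale over the alternatives that kept all tumors, and at 0.78 to 0.98 and 1.18 to 1.47 with a tumor left out. The number of genes called was 17 of 3796 by DESeq2 and 9 of 35103 by DESeq2 without independent filtering, among them 2 listed genes, Cachd1 and Celsr2, chosen on this comparison, and 0 under the other 20 alternatives. The cause was not tested. The median of the listed genes was 0.23 with at least 10 counts in every tumor, which left 7 of them, 0.64 with the leukocyte score and 0.63 with the skeletal muscle score, and 0.28 to 0.55 with a tumor left out. Of single genes, Ryk turned to 0.0266 with library size alone. With the leukocyte score Wnt5a turned to 0.25, Wnt7b to 0.26, Ryk to 0.0400, Znrf3 to 0.11 and Tcf7 to 0.22. With the keratinocyte score Rnf43 turned to -0.14 and Znrf3 to 0.0272. With the skeletal muscle score Rnf43 turned to -0.10, Wnt5a to 0.0318, Wnt7b to 0.37, Znrf3 to 0.26 and Tcf7 to 0.24. Leaving out 1 tumor gave ranges that crossed 0 for Znrf3 (-0.17 to 0.0504), Ryk (-0.0887 to 0.0756), Kremen1 (-0.0014 to 0.17), Lgr6 (-0.0425 to 0.27), Vangl2 (-0.25 to 0.49) and Rnf43 (-0.19 to 0.27). The cause was not tested. Tumors 1 to 5 carry the same numbers in both groups. After subtraction of the group means, same-numbered tumors had a mean r of 0.26, against -0.07 for other numbers. Only 3 of 5 same-numbered pairs correlated above 0.1, and 3 of 10 tumors matched their own number best, so the number was not taken to pair mice. With the tumor number as a replicate block 0 genes were called, 0 of them listed, 8 listed genes were positive and their median was 0.46, with Cachd1 at 0.89 and Celsr2 at 1.32. Depth limited Celsr3 and Nkd1, and left Axin2 with 3 to 30 counts.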
